A study of Homo sapiens with 20 samples.

Results

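The baseline transcriptome of ABC-1, a human cell line from a lung adenocarcinoma, was compared with those of 4 other tumor cell lines. The comparison used the 2 ABC-1 libraries treated with the solvent DMSO and the 8 DMSO libraries of COLO320DM and RKO (colorectal), UO-31 (renal) and OVCAR-4 (high grade serous ovarian). These are the 10 DMSO libraries among the 20 of the series, and the other 10 came from the same lines treated with G007-LK, an inhibitor of the tankyrases, at 1 µM. Cells were treated for 24 hours, DMSO was at 0.01%, and each line and treatment had 2 biological replicates, from which poly(A) RNA was sequenced. ABC-1, COLO320DM, UO-31 and OVCAR-4 were studied as lines sensitive to tankyrase inhibition and RKO as an insensitive line. ABC-1 and RKO were grown in EMEM and the other lines in RPMI-1640, so line and medium cannot be told apart where ABC-1 is set against the other 3. Each tissue had 1 line (2 for the colon and rectum), so the values describe ABC-1 and not lung tumors in general, and a p-value measures the spread between the 2 libraries of a line.

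The lung is lined by different epithelia. Alveolar type 2 cells make surfactant, whereas the conducting airways hold secretory, ciliated and basal cells with their own keratins, secretoglobins and mucins. Tankyrases attach ADP-ribose chains to AXIN proteins and angiomotins and so mark them for degradation, which ties them to WNT/β-catenin and YAP signaling. The MYC, PI3K/AKT and FOXO genes described below belong to growth pathways whose levels differ widely between tumor lines.

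Levels are RPKM as deposited, that is reads scaled by transcript length and by the mapped reads of the library, and the absolute depth behind them is unknown because no counts were used. From the steps between low values, which reflect single reads, the read total relative to the first ABC-1 library was estimated at 0.935 in the other ABC-1 library, 0.476 to 0.503 in the OVCAR-4 libraries and 0.868 to 1.17 in the rest, so low values are least precise in OVCAR-4. RPKM summed to 471672 to 494250 in the ABC-1 libraries, to 381878 to 514173 in those of COLO320DM, UO-31 and RKO, and to 895010 to 909187 in those of OVCAR-4. The median gene was accordingly 0.89 log2 units lower in ABC-1 than in OVCAR-4. Log2 differences are therefore given on log2(RPKM + 0.5) after division of every library by its median ratio (rescaled values), which brought this median to -0.07, and counts are given on the deposited and on the rescaled values. The added 0.5 understates the difference of a gene that is low in either line. The 2 ABC-1 libraries correlated with r = 0.997 across the genes above 1 RPKM in at least 1 of them.

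Of 21201 gene symbols, 12544 averaged at least 1 RPKM over the 5 lines and were tested. ABC-1 was higher than the equally weighted mean of the 4 other lines for 3805 genes (30.3%) and lower for 6969 (55.6%), and after rescaling for 5074 (40.4%) and 5872 (46.8%), by limma with Benjamini-Hochberg adjusted p-values below 0.05. A difference from this mean was thus the rule for genes of any kind. The shares after rescaling are the background for the counts of the gene lists below. A gene below 1 RPKM in ABC-1 was tested only if other lines raised the mean to 1, which favors a lower call. Against single lines, ABC-1 was higher for 40.8% and lower for 39.5% of genes (COLO320DM), 35.3% and 46.1% (UO-31), 13.2% and 75.4% (OVCAR-4), and 43% and 37.2% (RKO). After rescaling these shares were 42% and 42.7% (COLO320DM), 39.7% and 46% (UO-31), 39.5% and 46% (OVCAR-4), and 43.9% and 40.2% (RKO), so the imbalance against OVCAR-4 was no longer seen. A gene was said to stand apart where ABC-1 differed from each of the 4 lines in 1 direction by at least 1 log2 unit with all 4 adjusted p-values below 0.05. By this measure 304 genes (2.42%) stood apart as higher and 528 (4.21%) as lower, and after rescaling 508 (4.05%) and 415 (3.31%). On both scales together, 303 (2.42%) stood apart as higher and 395 (3.15%) as lower. Across genes, which are not independent replicates, the log2 levels of ABC-1 correlated best with those of OVCAR-4 (r = 0.778), followed by RKO (0.728), COLO320DM (0.721) and UO-31 (0.699).

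Several of the genes furthest above the other lines are known from epithelia. AGR2, a protein disulfide isomerase of mucus-secreting cells (chr7:16831435-16873057 in GRCh37), had 898 and 981 RPKM in ABC-1, 0.0351 and 0.0719 in RKO, 0.879 and 0.779 in UO-31, 0.103 and 0.12 in COLO320DM and 2.16 and 1.27 in OVCAR-4. Both ABC-1 libraries thus held it among the abundant transcripts and all 8 others near the bottom of the range, with a difference of 9.46 ± 0.14 log2 units (SE) from OVCAR-4, the nearest line (limma, adjusted p = 5.16e-13, here and below the highest of the 4 comparisons). KRT4, a keratin of mucosal stratified epithelium (chr12:53200333-53207900), had 295 and 313 RPKM in ABC-1 and at most 0.333 elsewhere. CLDN6, a claudin of embryonic epithelium (chr16:3064713-3070072), had 292 and 329 RPKM and at most 0.63 elsewhere. S100P, a calcium-binding protein of epithelial tumors (chr4:6695605-6698897), had 446 and 447 RPKM and at most 2.18 elsewhere. The leading genes were chosen for a large difference from every line, so this gap between the groups is no separate result. LIPH, a lipase that releases lysophosphatidic acid (chr3:185224050-185270376), followed with 108 and 131 RPKM and at most 2.01 elsewhere, and ELF5, an ETS factor of glandular epithelium (chr11:34500338-34546740), with 23.2 and 26.2 RPKM and at most 0.0647 elsewhere.

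The other leading genes had varied roles. IGF2, a fetal growth factor (chr11:2150342-2179621), had 44 and 53.7 RPKM in ABC-1, 0 and 0 in RKO, 0.169 and 0.106 in UO-31, 0.00658 and 0 in COLO320DM and 0.0921 and 0.0649 in OVCAR-4. Its locus overlaps a readthrough transcript with the insulin gene, which these values cannot separate from it. WNT10A, a WNT ligand of skin and teeth (chr2:219745574-219764303), had 119 and 122 RPKM in ABC-1, 0.472 and 0.437 in RKO, 0.64 and 0.519 in UO-31, 0.0287 and 0.0336 in COLO320DM and 2.18 and 2.16 in OVCAR-4. Both secreted factors were thus far higher in ABC-1, although WNT10A reached 1 RPKM in OVCAR-4. XAGE2, a cancer-testis antigen with a near-identical copy (chrX:52112164-52118823), had 111 and 120.3 RPKM and at most 0.11 elsewhere. The remaining leading genes were PRSS35, a protease-like protein (88.6 and 101 RPKM), BATF, an AP-1 family factor known from lymphocytes (42.8 and 41.3), WBSCR17, a glycosyltransferase of the mucin-type family (28.7 and 31.4), LMO3, a LIM-only cofactor (41.6 and 46.2), PLEKHG4B, a guanine nucleotide exchange factor (67.3 and 74.4), and CYP2W1, a cytochrome P450 of fetal gut and tumors (36.4 and 34.5). None of these 6 genes exceeded 0.971 RPKM in another line.

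The genes furthest below the other lines included several that most cell types express. They were taken from the 6241 genes with at least 5 RPKM in each other line, of which 295 (4.73%) stood apart as lower on deposited values and 225 (3.61%) after rescaling. NGFRAP1, a small adaptor of the neurotrophin receptor p75, had 0.408 and 0.393 RPKM in ABC-1, 83.6 and 84.2 in RKO, 179 and 173 in UO-31, 63.8 and 62.6 in COLO320DM and 432 and 433 in OVCAR-4. Its level in ABC-1 was thus a small fraction of that in every other library, with a difference of -6.27 ± 0.062 log2 units (SE) from COLO320DM (limma, adjusted p = 2.45e-14). CTSZ, a lysosomal carboxypeptidase (chr20:57560741-57583293), had 0.501 and 0.761 RPKM in ABC-1 and at least 71 elsewhere. TSPO, a cholesterol-binding protein of the outer mitochondrial membrane (chr22:43547553-43559248), had 1.43 and 1.23 RPKM and at least 98.3 elsewhere. ANXA6, a calcium-dependent membrane-binding protein (chr5:150480267-150537376), had 0.853 and 1.15 RPKM and at least 37 elsewhere. These genes were chosen for a difference from every line, so the lack of overlap is no separate result.

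Other leading low genes were enzymes. ALDH2, the mitochondrial acetaldehyde dehydrogenase (chr12:112204691-112255336), had 0.0193 and 0 RPKM in ABC-1, 58.3 and 58.1 in RKO, 18.6 and 16.1 in UO-31, 108 and 115 in COLO320DM and 49.5 and 51.2 in OVCAR-4. OXCT1, which lets mitochondria burn ketone bodies (chr5:41730167-41870527), had 0.0112 and 0.024 RPKM in ABC-1, 59.9 and 60.4 in RKO, 18.3 and 17.9 in UO-31, 26.2 and 32.6 in COLO320DM and 22.8 and 22.1 in OVCAR-4. ABC-1 expressed next to nothing of either enzyme, while the order of the other 4 lines differed between them. ALDH7A1, a dehydrogenase of lysine breakdown (chr5:125866892-125931054), had 0.0646 and 0.0518 RPKM and at least 15.9 elsewhere. PTGR1, which reduces prostaglandins and lipid aldehydes (chr9:114312002-114362173), had 0.0568 and 0.0607 RPKM and at least 17 elsewhere. PLIN2, a lipid droplet protein that was picked after its values were seen, had 0.0567 and 0.0809 RPKM and at least 13.3 elsewhere. The remaining leading low genes were EPB41L2, a membrane skeleton protein (0.108 and 0.0768 RPKM), PBDC1 (0 and 0.0352), PARVB, which links integrins to actin (0.127 and 0.0226), EMC10, of the ER membrane complex (0.176 and 0.146), IAH1, an esterase-like protein (0.21 and 0.135), H2AFY2, a macroH2A histone (0.055 and 0), and FAM171A1 (0.111 and 0.0648). None of these 7 genes was below 15.5 RPKM in any other library.

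**Figure D1:**
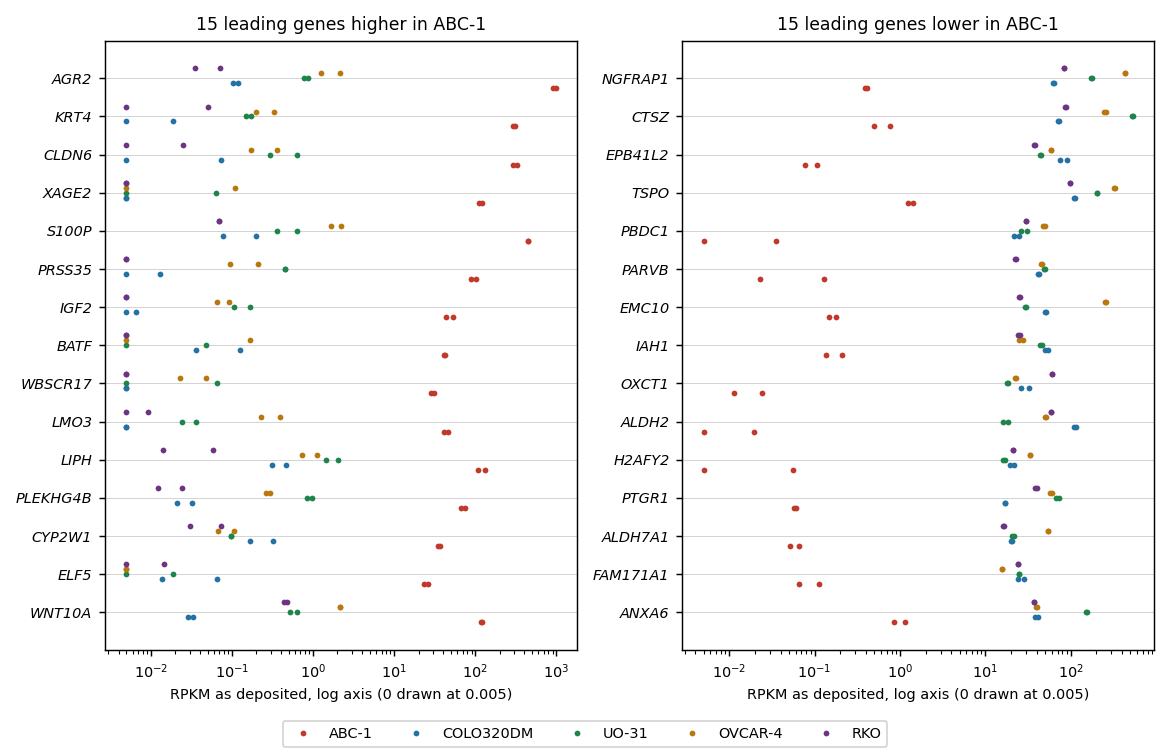
RPKM as deposited (log axis, 0 drawn at 0.005) of the 15 leading higher (left) and 15 leading lower genes (right) in the 10 DMSO libraries, each point 1 library and each color 1 line. As the choice of these genes requires, the red ABC-1 points lie apart from all others in every row. Examples are AGR2, at 898 and 981 RPKM, and NGFRAP1, at 0.408 and 0.393.

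As a count of such genes, 29 had at least 10 RPKM in both ABC-1 libraries and less than 1 in all 8 others, among them the glandular genes GABRP and MUC15, the squamous genes SPRR3 and CSTA, and BARX2, a homeobox factor. The same count was 34 for COLO320DM, 53 for UO-31, 57 for OVCAR-4 and 15 for RKO. In the other direction, 45 genes were below 0.5 RPKM in both ABC-1 libraries and at least 5 in all 8 others, against 41 in COLO320DM, 56 in RKO and 5 each in UO-31 and OVCAR-4. ABC-1 was thus near the 2 colorectal lines in the number of shared genes that it lacked. These counts use deposited values, on which OVCAR-4 runs high, and carry no test. The most abundant transcripts of ABC-1 encoded the ribosomal proteins RPS18 (5044 RPKM), RPL8 (4296), RPL41 (3979) and RPS2 (3599) and β-actin (ACTB, 3857).

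Alveolar markers, against which the label of lung adenocarcinoma was checked, were mostly at background. Of 23, 21 were in the table and 8 reached 1 RPKM in ABC-1, against 10 in OVCAR-4 and 4 or 5 in the other lines. Their line means summed to 213 RPKM in ABC-1 and 613 in OVCAR-4 on deposited values. Most of each sum came from 1 gene, LPCAT1 in ABC-1 (177 RPKM) and the highest member in OVCAR-4 (481 RPKM). The surfactant protein genes SFTPA2 and SFTPC were listed at 0 in both ABC-1 libraries, SFTPB had 0.0326 and 0.0697 RPKM and SFTPD 0.0616 and 0. NAPSA, a protease used to diagnose lung adenocarcinoma, had 0.25 and 0.119 RPKM. The defining surfactant markers of the alveolus were thus at or near 0 in a line labelled as lung adenocarcinoma. NKX2-1 and SFTPA1 were not analysed here. Of 9 alveolar markers tested, 2 stood apart as higher, on both scales, and none as lower. CLIC5, a chloride channel family protein of alveolar type 1 and other cells (chr6:45848564-46048085), had 17.5 and 19.5 RPKM and at most 6.44 elsewhere, and LPCAT1, which makes surfactant phospholipid but is not confined to lung (chr5:1456595-1524077), had 170.4 and 183 RPKM and at most 82.3 elsewhere. 

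Airway markers were present in part, and more of them reached 1 RPKM in OVCAR-4 on deposited values. Of 25, 24 were in the table and 6 reached 1 RPKM in ABC-1 against 11 in OVCAR-4. Line means summed to 1096 and 2010 RPKM on deposited values, of which the highest single gene gave 940 and 1103. The order of these sums depends on the scale, since OVCAR-4 runs high on deposited values. Of 8 tested, 6 were higher and 2 lower than the mean of the other lines on both scales. Their rescaled median was 3.42 log2 units, and 40.4% of all genes tested were higher and 46.8% lower after rescaling. AGR2, SOX2 and KRT15 stood apart as higher on both scales. SOX2, a factor of airway and squamous progenitors (chr3:181429713-181432224), had 48.8 and 52.4 RPKM in ABC-1, 0 and 0 in RKO, 0.0914 and 0.163 in UO-31, 0 and 0.0158 in COLO320DM and 1.86 and 2.3 in OVCAR-4. It was thus high in ABC-1 alone, with a difference of 5.05 ± 0.087 log2 units (SE) from OVCAR-4 (limma, adjusted p = 1.65e-12). KRT15, a basal cell keratin (chr17:39669997-39678781), had 28.5 and 26.1 RPKM and at most 3.14 elsewhere. Several defining markers of the 3 airway cell types were at or near 0. The secretory genes SCGB1A1, MUC5B and TFF3 were listed at 0 in both ABC-1 libraries, and FOXJ1 of ciliated cells had 0.18 and 0.112 RPKM. TP63 and KRT5 of basal cells had 0.0974 and 0.165 and 0 and 0.0184 RPKM. SLPI, an airway antiprotease, had 47.8 and 46.6 RPKM in ABC-1 and 1092 and 1114 in OVCAR-4, so that this marker was higher in the ovarian line.

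Markers of most other tissues were low. None of 36 gut and liver markers and none of 14 kidney markers in the table reached 1 RPKM in ABC-1, and their line means summed to 0.933 and 0.689 RPKM, against at least 14.3 and 2.46 in every other line. No kidney marker reached 1 RPKM in COLO320DM or RKO either. Of 20 markers of blood, endothelium and fibroblasts, 2 reached 1 RPKM and the sum was 6.44 RPKM, against 35.1 to 343 in the other lines. The sum of 343 was that of RKO, where 1 marker reached 1 RPKM and that marker alone gave almost all of it. In COLO320DM, UO-31 and OVCAR-4, 6, 5 and 8 of these markers reached 1 RPKM. Of 17 neuroendocrine markers, 1 reached 1 RPKM in ABC-1 and 1 in RKO, against 4 to 7 in the other lines. In ABC-1 it was ENO2 (1.88 and 2.49), which also stood apart as lower. Of 13 ovarian and Mullerian markers, 2 reached 1 RPKM, FOLR1, the folate receptor (8.37 and 9.52), and MSLN. The sum of this list, 144 RPKM, lay below that of OVCAR-4 (364) and above those of UO-31 (26.2), COLO320DM (12.6) and RKO (0.223). MSLN, mesothelin, a surface protein of mesothelium and several carcinomas (chr16:810734-818865), had 133 and 134 RPKM in ABC-1, 0.064 and 0.0655 in RKO, 1.88 and 1.77 in UO-31, 0.0156 and 0.0729 in COLO320DM and 4.36 and 5.03 in OVCAR-4. It stood apart as higher on both scales, by 5.51 ± 0.082 log2 units (SE) from OVCAR-4 (limma, adjusted p = 6.37e-13).

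ABC-1 was strongly epithelial by its junction genes, a property that it shared with OVCAR-4. All 34 junction genes of the list were tested, reached 1 RPKM in ABC-1 and were higher than the mean of the other lines on both scales, with a median difference of 4.09 log2 units, against -0.07 over all genes. Of all genes tested, 40.4% were higher after rescaling. In OVCAR-4, 34 reached 1 RPKM, in UO-31 16, in RKO 10 and in COLO320DM 7. CDH1, E-cadherin, had 69.2 and 80.8 RPKM in ABC-1, 0.0581 and 0.104 in RKO, 0.402 and 0.389 in UO-31, 0.305 and 0.149 in COLO320DM and 106 and 111 in OVCAR-4. EPCAM, an epithelial adhesion molecule, had 557 and 609 RPKM in ABC-1, 2.71 and 2.73 in RKO, 13.7 and 12 in UO-31, 1.1 and 1.24 in COLO320DM and 454 and 468 in OVCAR-4. Both genes were thus high in ABC-1 and OVCAR-4 and low in the other 3 lines. Of the 34, 6 stood apart as higher on deposited values and 16 after rescaling. The 6 were RAB25, a GTPase of apical recycling (213 and 214 RPKM, at most 62.7 elsewhere), CLDN3, a claudin (129.7 and 119, at most 38.3), SPINT1, a protease inhibitor (246 and 260, at most 86.2), TJP3, a tight junction scaffold (19.4 and 20.3, at most 8.88), BSPRY (27 and 28.2, at most 11.8) and GRHL1, a grainyhead factor (19 and 20.4, at most 3.68).

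Mesenchymal genes were low, with exceptions, as they were in RKO. Of 31, 8 reached 1 RPKM in ABC-1 and in RKO, 12 in COLO320DM, 19 in OVCAR-4 and 24 in UO-31, and line means summed to 372 RPKM in ABC-1 and 249 in RKO. Of the 31, 24 were tested, of which 19 were lower than the mean of the other lines and 4 higher on both scales, with a median of -1.49 log2 units. After rescaling, 46.8% of all genes tested were lower and 40.4% higher. Members below 1 RPKM in ABC-1 were tested only because other lines were higher, which favors a lower call. VIM, vimentin, the filament protein of mesenchymal cells (chr10:17270240-17279592), had 1.56 and 1.87 RPKM in ABC-1, 13.2 and 14.7 in RKO, 1927 and 1925 in UO-31, 539.7 and 579.6 in COLO320DM and 44.9 and 44.8 in OVCAR-4. ABC-1 was thus the line with the least vimentin, by -2.77 ± 0.058 log2 units (SE) from RKO (limma, adjusted p = 4.44e-12). SNAI1, a repressor of E-cadherin (chr20:48599517-48605423), had 0.627 and 0.522 RPKM and at least 2.56 elsewhere, and VIM and SNAI1 were the members that stood apart as lower. Among the 4 higher genes, FN1, fibronectin, had 132 and 152 RPKM in ABC-1, 0.0159 and 0.00812 in RKO, 366 and 369 in UO-31, 1.17 and 1.43 in COLO320DM and 9.42 and 9.66 in OVCAR-4. S100A4 (80.6 and 79 RPKM), CALD1 (62 and 71.1) and CAV1 (49.6 and 52.5) were the others, so the low level of vimentin did not extend to the whole list.

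**Figure D2:**
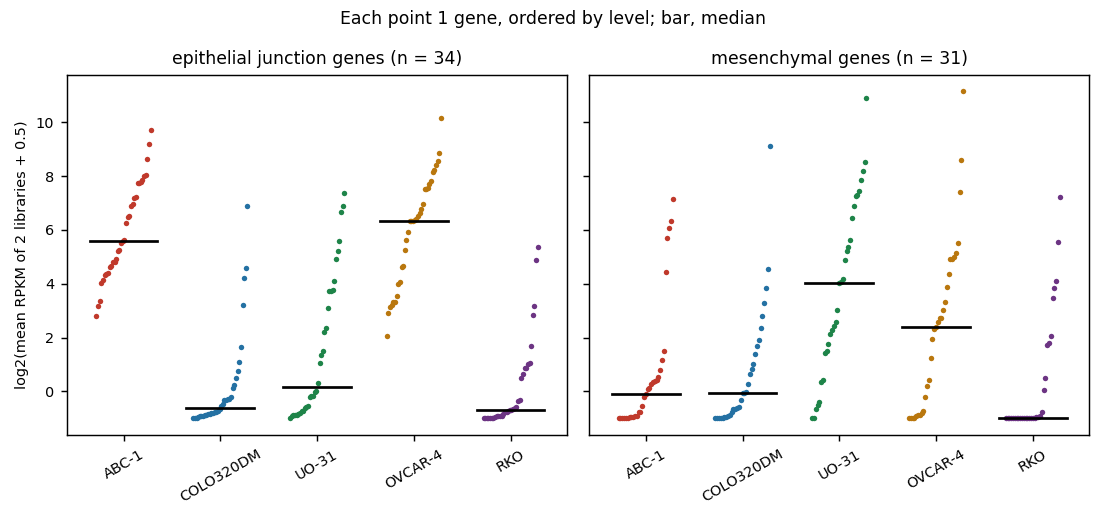
Level, as log2(mean RPKM of 2 libraries + 0.5), of 34 epithelial junction genes (left) and 31 mesenchymal genes (right) in each line, each point 1 gene and each bar the median over genes. ABC-1 and OVCAR-4 have 34 of 34 junction genes at 1 RPKM or above, and ABC-1 and RKO have 8 of 31 mesenchymal genes there.

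Of 19 keratins, 14 were tested, of which 11 were higher and 3 lower than the mean of the other lines on both scales, and KRT4 and KRT15 stood apart as higher. Over all genes tested, 40.4% were higher and 46.8% lower after rescaling. The simple epithelial keratins KRT8, KRT18 and KRT19 had 1592 and 1577, 1189 and 1179 and 1334 and 1283 RPKM. Of 58 lineage transcription factors, 39 were tested, of which 4 stood apart as higher and 3 as lower on deposited values, and 8 and 1 after rescaling. Besides SOX2, these were TFAP2C, an AP-2 factor of surface ectoderm (41.7 and 45.6 RPKM, at most 12.8 elsewhere), GATA3, a factor of luminal epithelium (12.3 and 11.8, at most 1.94), and KLF4, a factor of differentiating epithelium (7.02 and 7.78, at most 2.13). SOX9, a factor of epithelial progenitors (chr17:70117161-70122557), stood apart as lower on both scales, with 0 and 0.0108 RPKM and at least 0.813 elsewhere. TBX3 and RUNX2 were lower on deposited values alone.

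HOX genes, which set position along the body axis, were low as a group. Of 39, 33 were tested, of which 27 were lower and 5 higher than the mean of the other lines on both scales, with a median of -2.02 log2 units. Over all genes tested, 46.8% were lower and 40.4% higher after rescaling. HOX genes below 1 RPKM in ABC-1 were tested only because other lines were higher, so their lower calls were largely set in advance. Counts at 1 RPKM over all 39 do not depend on this. In ABC-1, 6 HOX genes reached 1 RPKM, against 24 in COLO320DM, 25 in UO-31, 19 in OVCAR-4 and 25 in RKO. HOXB9 (chr17:46698518-46703720) had 0.0443 and 0.0158 RPKM in ABC-1, 8.26 and 9.04 in RKO, 15.6 and 14.9 in UO-31, 1.25 and 1.82 in COLO320DM and 36.1 and 38 in OVCAR-4. HOXB6 (chr17:46673113-46682354) had 0 and 0 RPKM in ABC-1, 2.53 and 2.63 in RKO, 3.03 and 4.03 in UO-31, 2.99 and 3.12 in COLO320DM and 9.39 and 11.8 in OVCAR-4. ABC-1 was below every other line in both. On deposited values 9 HOX genes stood apart as lower and after rescaling 8, and none stood apart as higher. The others were HOXB3, HOXB4, HOXB5, HOXC4, HOXC6 and HOXC10 and, on deposited values alone, HOXB13. Among the 6 expressed HOX genes, HOXC13, a factor of hair and nail, had 6.57 and 6.2 RPKM, HOXA5, a factor of lung development, 4.39 and 4.91, and HOXB7 4.12 and 3.82.

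**Figure D3:**
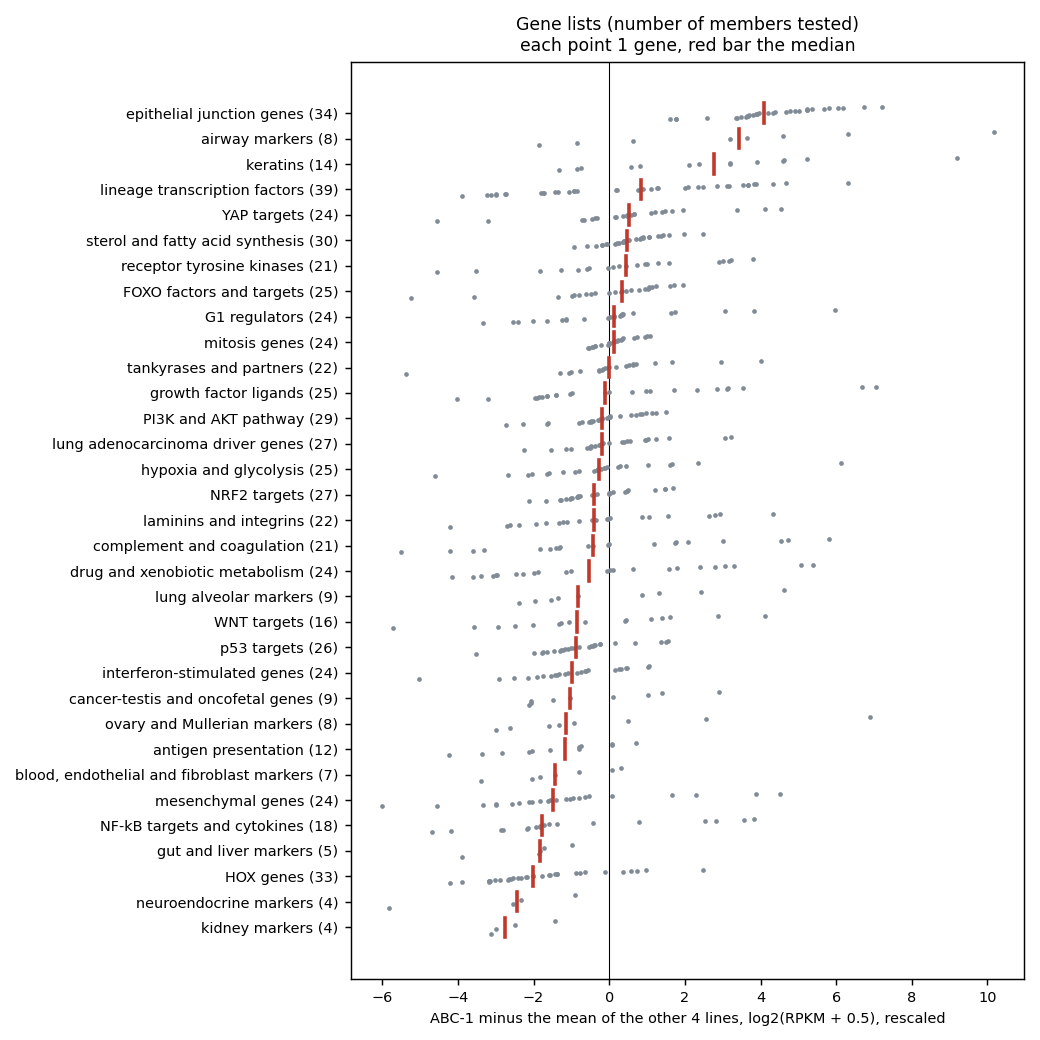
Difference between ABC-1 and the mean of the 4 other lines on log2(RPKM + 0.5) after rescaling, for the tested members of 33 gene lists (number tested in brackets), each point 1 gene and each red bar the median. Epithelial junction genes have the highest median, 4.09, and kidney markers, of which 4 were tested, the lowest, -2.75. No kidney marker reached 1 RPKM in ABC-1, so these 4 were tested only because other lines were higher.

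The 3 MYC genes, growth-promoting transcription factors, stood in another balance in ABC-1. MYC had 15 and 17 RPKM in ABC-1, 159 and 155 in RKO, 70.2 and 67.9 in UO-31, 1515 and 1655 in COLO320DM and 81.9 and 78.3 in OVCAR-4. MYCN had 86.8 and 89.7 RPKM in ABC-1, 0 and 0 in RKO, 0.141 and 0.0699 in UO-31, 7.28 and 7.76 in COLO320DM and 3.17 and 3.02 in OVCAR-4. MYCL had 13.5 and 14.9 RPKM in ABC-1, 0.686 and 0.859 in RKO, 0.153 and 0.0756 in UO-31, 0.555 and 0.484 in COLO320DM and 2.13 and 2.53 in OVCAR-4. ABC-1 was thus the line with the least MYC and the most MYCN and MYCL, and no other line overlapped it in any of the 3. The differences from the nearest line were -1.39 ± 0.045 log2 units (SE) for MYC, 3.46 ± 0.078 for MYCN and 3.13 ± 0.11 for MYCL (limma, highest adjusted p = 3.31e-10). Of 24 G1 regulators, which include the 3, 2 stood apart as higher and 3 as lower on deposited values, and 4 and 2 after rescaling. CCNE1, cyclin E, was lower on both scales (3.5 and 2.77 RPKM, at least 8.01 elsewhere), E2F2 and CDKN2C were higher after rescaling alone, and RB1 was lower on deposited values alone (8.58 and 9.07, at least 20.4 elsewhere). None of 24 mitosis genes stood apart on either scale, and their median was 0.12 log2 units.

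Tankyrases and their partners, the direct and indirect targets of G007-LK, were measured in full. All 22 genes were tested, and on both scales 2 stood apart as higher and 1 as lower. TNKS had 3.0 and 3.62 RPKM in ABC-1, 4.31 and 4.42 in RKO, 5.44 and 5.36 in UO-31, 3.55 and 4.86 in COLO320DM and 4.97 and 5.3 in OVCAR-4. TNKS2 had 15.4 and 18.4 RPKM in ABC-1, 9.11 and 9.59 in RKO, 12.5 and 12.3 in UO-31, 6.25 and 8.42 in COLO320DM and 22.6 and 23.4 in OVCAR-4. Neither tankyrase stood apart. AMOT, an angiomotin that holds YAP at the membrane (chrX:112017731-112084059), had 29.2 and 35.5 RPKM in ABC-1, 0.363 and 0.35 in RKO, 4.22 and 4.12 in UO-31, 5.58 and 7.36 in COLO320DM and 0.412 and 0.508 in OVCAR-4. AMOT was thus highest in ABC-1, by 2.23 ± 0.085 log2 units (SE) from COLO320DM (limma, adjusted p = 7.28e-10). TEAD2 (chr19:49843852-49865714), a DNA-binding partner of YAP, had 0.0536 and 0.0574 RPKM in ABC-1, 9.23 and 9.52 in RKO, 16.7 and 16.4 in UO-31, 15.8 and 17 in COLO320DM and 119 and 118 in OVCAR-4. TEAD3 (chr6:35441374-35464856), another partner, had 70.8 and 74.4 RPKM in ABC-1, 11 and 11.3 in RKO, 7.89 and 7.88 in UO-31, 3.89 and 3.73 in COLO320DM and 34.7 and 34.2 in OVCAR-4. These 2 TEAD genes stood apart in opposite directions, TEAD2 by -4.34 ± 0.052 log2 units (SE) from RKO and TEAD3 by 1.96 ± 0.068 from OVCAR-4 (limma, highest adjusted p = 3.76e-10). Of 24 YAP targets, 17 were higher and 7 lower than the mean of the other lines after rescaling, with a median of 0.53 log2 units, and 1, the coagulation factor gene F3, stood apart, after rescaling alone. On this contrast, 40.4% of all genes tested were higher and 46.8% lower.

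Of 20 WNT targets, 16 were tested, of which 7 were higher and 9 lower than the mean of the other lines after rescaling, with a median of -0.86 log2 units. The shares over all genes tested were 40.4% and 46.8%, with a median of -0.07. AXIN2, the most widely used WNT target, had 5.46 and 5.97 RPKM in ABC-1, 0.644 and 0.515 in RKO, 0.337 and 0.194 in UO-31, 116 and 134 in COLO320DM and 7.48 and 7.98 in OVCAR-4, which placed ABC-1 among the middle lines. CD44, an adhesion receptor (chr11:35160429-35253949), had 0.132 and 0.149 RPKM in ABC-1, 42.8 and 43.9 in RKO, 193 and 189.7 in UO-31, 7.09 and 8.69 in COLO320DM and 21.8 and 22.5 in OVCAR-4, a difference of -3.86 ± 0.049 log2 units (SE) from COLO320DM (limma, adjusted p = 1.27e-13). CD44 was thus at background in ABC-1 alone. TCF7, a WNT transcription factor, was also lower (0.0963 and 0.0773 RPKM, at least 2.8 elsewhere), and EPHB3, an ephrin receptor, was higher (13.1 and 14.4, at most 1.85 elsewhere).

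In the PI3K/AKT pathway, 29 of 30 genes were tested. After rescaling, 9 were higher and 15 lower than the mean of the other lines, with a median of -0.18 log2 units. Here and for the FOXO list below, the shares over all genes tested were 40.4% and 46.8%, with a median of -0.07. AKT1 and SGK1 stood apart as lower on both scales. AKT1 (chr14:105235686-105262088) had 21 and 21.6 RPKM in ABC-1, 57.5 and 58.8 in RKO, 75.2 and 76.9 in UO-31, 50.6 and 54.3 in COLO320DM and 171 and 176 in OVCAR-4. AKT2 had 42.1 and 41.4 RPKM in ABC-1, 16.2 and 15.9 in RKO, 20 and 20.6 in UO-31, 22.6 and 25.3 in COLO320DM and 73.5 and 74.1 in OVCAR-4. ABC-1 thus had the least AKT1, by -1.31 ± 0.045 log2 units (SE) from COLO320DM (limma, adjusted p = 3.06e-10). AKT1 lies in a run of lower neighboring genes on chromosome 14 that is given below. The AKT2 of ABC-1 was above that of RKO, UO-31 and COLO320DM. It was below that of OVCAR-4 on deposited values, on which OVCAR-4 runs high, so their order depends on the scale. SGK1, a kinase related to AKT, had 0.249 and 0.28 RPKM and at least 1.06 elsewhere. Of 25 FOXO factors and targets, 14 were higher and 9 lower than the mean after rescaling, with a median of 0.33 log2 units, and 2 stood apart as lower. These were TXNIP, an inhibitor of glucose uptake, with 0.0677 and 0.058 RPKM in ABC-1, 19.1 and 17.9 in RKO, 9.22 and 7.88 in UO-31, 19 and 20.9 in COLO320DM and 68.2 and 70.7 in OVCAR-4, and GADD45A, a stress response gene, with 3.32 and 3.31 RPKM and at least 9.24 elsewhere. TXNIP was at background in ABC-1 alone.

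**Figure D4:**
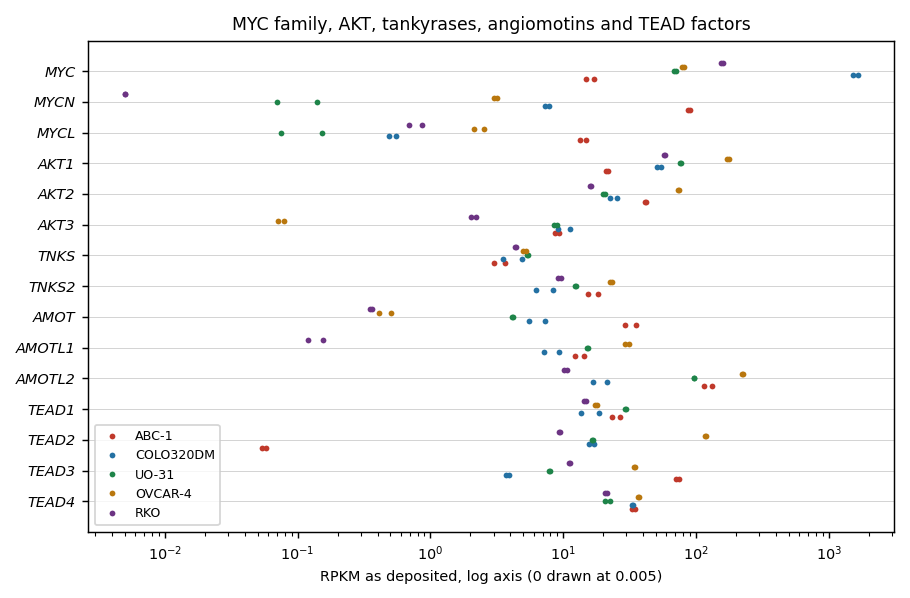
RPKM as deposited (log axis, 0 drawn at 0.005) of MYC family, AKT, tankyrase, angiomotin and TEAD genes in the 10 DMSO libraries, each point 1 library and each color 1 line. ABC-1 (red) is lowest for MYC (15 and 17 RPKM), AKT1 (21 and 21.6) and TEAD2 (0.0536 and 0.0574) and highest for MYCN (86.8 and 89.7) and AMOT (29.2 and 35.5).

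Of 28 receptor tyrosine kinases, 21 were tested, and none stood apart as higher on deposited values and 4 after rescaling, namely ERBB2 (53.3 and 59 RPKM), ERBB3 (23 and 26.1), FGFR3 (32.2 and 35.7) and DDR1, a collagen receptor (117 and 123). FGFR1 stood apart as lower on both scales, with 0.812 and 1.04 RPKM and at least 10.3 elsewhere. EGFR had 38.6 and 54.6 RPKM in ABC-1, 3.75 and 3.44 in RKO, 26.6 and 27.3 in UO-31, 0.0729 and 0.128 in COLO320DM and 17.3 and 19.4 in OVCAR-4. Its ABC-1 values were the highest, but the difference from UO-31, 0.82 ± 0.11 log2 units (SE), was below 1. Of 32 growth factor ligands, 25 were tested, and 3 stood apart as higher on deposited values and 4 after rescaling. Besides IGF2 and WNT10A these were KITLG, the KIT ligand (17.1 and 20.8 RPKM, at most 9.11 elsewhere), and, after rescaling alone, WNT7B, while TGFB1 was lower on deposited values alone. Of 33 lung adenocarcinoma driver genes, 27 were tested, and NF1, a RAS inactivator (chr17:29421945-29709134), stood apart as lower on both scales, with 0.668 and 0.856 RPKM in ABC-1, 2.66 and 2.69 in RKO, 7.1 and 7.14 in UO-31, 6.13 and 9.89 in COLO320DM and 9.57 and 9.45 in OVCAR-4. The receptor genes ROS1 and RET were listed at 0 in both ABC-1 libraries, and ALK had 0.772 and 1.03 RPKM.

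Metabolic genes stood apart in both directions. Of 31 drug and xenobiotic metabolism genes, 24 were tested, and on both scales 4 stood apart as higher and 5 as lower. CYP1B1, a P450 under control of the aryl hydrocarbon receptor (chr2:38294116-38337044), had 51.7 and 57.9 RPKM and at most 4.9 elsewhere. CYP2S1, another P450 (chr19:41699115-41713444), had 74.6 and 78.3 RPKM and at most 14.4 elsewhere. CYP26B1, which degrades retinoic acid, had 6.02 and 6.47 RPKM and at most 1.0 elsewhere. These P450 genes were among the higher ones, and GSTM3 (0.154 and 0.134 RPKM), SULT1A1, UGT8, ABCC1 (4.12 and 4.48) and ABCC4 were the lower, of which GSTM3 and SULT1A1 have close copies in the genome. None of 35 NRF2 targets stood apart, with 9 higher and 14 lower than the mean among 27 tested after rescaling and a median of -0.39 log2 units. On the same contrast, 40.4% of all genes tested were higher and 46.8% lower. Of 30 sterol and fatty acid synthesis genes, 23 were higher and 5 lower than the mean after rescaling, with a median of 0.47 log2 units, and SCD, the stearoyl-CoA desaturase, stood apart on both scales (342 and 407 RPKM, at most 120.4 elsewhere). SREBF1, which controls these genes, stood apart after rescaling alone. Of 26 hypoxia and glycolysis genes, 25 were tested, 8 were higher and 16 lower than the mean after rescaling, and SLC2A3, a glucose transporter, stood apart as higher (120.4 and 136 RPKM, at most 6.36 elsewhere), while PDK1 was lower on deposited values alone.

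Immune and stress genes that were tested were lower on balance, in part because of which genes were tested. Of 13 antigen presentation genes in the table, 12 were tested, of which 1 was higher and 9 lower than the mean after rescaling, with a median of -1.18 log2 units, and NLRC5, an activator of such genes, stood apart as lower on both scales (0.119 and 0.197 RPKM, at least 1.11 elsewhere). Of 31 interferon-stimulated genes, 24 were tested, 6 were higher and 17 lower after rescaling, with a median of -0.98, and ISG15 and IRF9 stood apart as lower after rescaling alone. Of 26 p53 targets, 5 were higher and 21 lower, with a median of -0.87, and DDB2, a DNA repair gene, stood apart as lower (4.38 and 4.6 RPKM, at least 8.86 elsewhere). Over all genes tested, 40.4% were higher and 46.8% lower than the mean after rescaling, with a median of -0.07 log2 units. The antigen presentation, interferon and p53 lists shared their direction in ABC-1, although few members stood apart in any of them. In these lists, 7 of 13, 14 of 31 and 23 of 26 members reached 1 RPKM in ABC-1. Members below 1 RPKM there were tested only because other lines were higher, which favors a lower call. Of 31 NF-kB targets and cytokines, 18 were tested, of which 5 were higher and 13 lower, with a median of -1.77. Only 6 of the 31 reached 1 RPKM in ABC-1, so most of these lower calls were set by the choice of genes tested. Within this list ICAM1, a leukocyte adhesion molecule (106 and 113 RPKM, at most 51.9 elsewhere), and PTGS2, cyclooxygenase 2 (5.66 and 6.34, at most 0.419), stood apart as higher on both scales and TNFAIP2 (0.0478 and 0.0716, at least 0.848) as lower.

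Among 34 complement and coagulation genes, 21 were tested, with 8 higher and 11 lower than the mean after rescaling, and 2 stood apart as higher on deposited values and 4 after rescaling. SERPING1, the inhibitor of complement C1, had 59.5 and 63.8 RPKM and at most 5.93 elsewhere, and CLU, clusterin, 359.9 and 369 and at most 34.8. Of 24 laminins and integrins, 22 were tested, with 7 higher and 12 lower, and ITGB4, the integrin of hemidesmosomes, stood apart as higher (60.3 and 64.1 RPKM, at most 30.4 elsewhere) and ITGA5, of the fibronectin receptor, as lower (0.469 and 0.672, at least 6.86 elsewhere). Of 30 cancer-testis and oncofetal genes, 9 were tested, with 4 higher and 5 lower, and PRAME stood apart as lower (4.52 and 5.33 RPKM, at least 18.5 elsewhere). Over all genes tested, 40.4% were higher and 46.8% lower than the mean after rescaling, so the counts of these lists were near the background.

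Most genes on the short arm of chromosome 5 were higher in ABC-1. Of the 75 tested genes that start below position 46000000 (GRCh37), a set chosen with its values in view, 49 (65.3%) were above all 4 other lines after rescaling, against 19.5% of the 11353 tested genes with a position and 11.5% of the 427 genes on the rest of chromosome 5. Their median difference from the mean of the other lines was 1.12 log2 units, and the medians against the single lines were 1.06 (COLO320DM), 1.04 (UO-31), 1.18 (OVCAR-4) and 1.25 (RKO). The median over the whole arm was thus of similar size against each line. Of the 75, 54 were called higher and 16 lower than the mean of the other lines after rescaling, and 19 were not above it. On both scales 14 of the 75 (18.7%) stood apart as higher, against 2.45% of all genes with a position, and 26 did after rescaling. No test over neighboring genes was made, since they are not independent.

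The difference was seen at the end of the arm and further in. The first 15 tested genes, from PLEKHG4B to SDHAP3 (chr5:92283-1593404), had a median of 2.06 log2 units against the mean of the other lines, and 7 of them stood apart as higher. This value rests on OVCAR-4, against which the median was 3.25, while it was 1.3 against COLO320DM, 1.31 against UO-31 and 1.35 against RKO. The 15 genes from DAP to SUB1 (chr5:10679342-32604185) had medians of 1.44, 1.42 and 1.44 against the latter 3 lines and 1.25 against OVCAR-4, so neither run was the higher against every line. SDHA, the flavoprotein of respiratory complex II, which has pseudogene copies in the genome, had 214 and 233 RPKM in ABC-1, 43 and 44 in RKO, 60.3 and 59.3 in UO-31, 62.1 and 66 in COLO320DM and 43.3 and 43.3 in OVCAR-4. PDCD6, a calcium-binding protein of vesicle traffic, had 285 and 311 RPKM in ABC-1, 53.9 and 52.4 in RKO, 67.1 and 66.9 in UO-31, 45.1 and 46.6 in COLO320DM and 50.7 and 51.1 in OVCAR-4. Both genes were above every other library in both ABC-1 libraries, SDHA by 1.77 ± 0.041 log2 units (SE) from COLO320DM and PDCD6 by 2.21 ± 0.047 from UO-31 (limma, highest adjusted p = 1.06e-11). NDUFS6, a subunit of respiratory complex I, had 475 and 431 RPKM and at most 142 elsewhere, and GOLPH3, a Golgi protein, 183 and 195 and at most 71.5. ANKH, which exports pyrophosphate and ATP, had 127 and 133 RPKM and at most 9.8 elsewhere. Among the genes that went the other way, SLC12A7, a potassium chloride cotransporter within the first 15 genes (0.196 and 0.314 RPKM, at least 6.44 elsewhere), and OXCT1 stood apart as lower. The genes of this paragraph, other than PLEKHG4B and OXCT1, were picked after their values were seen.

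**Figure D5:**
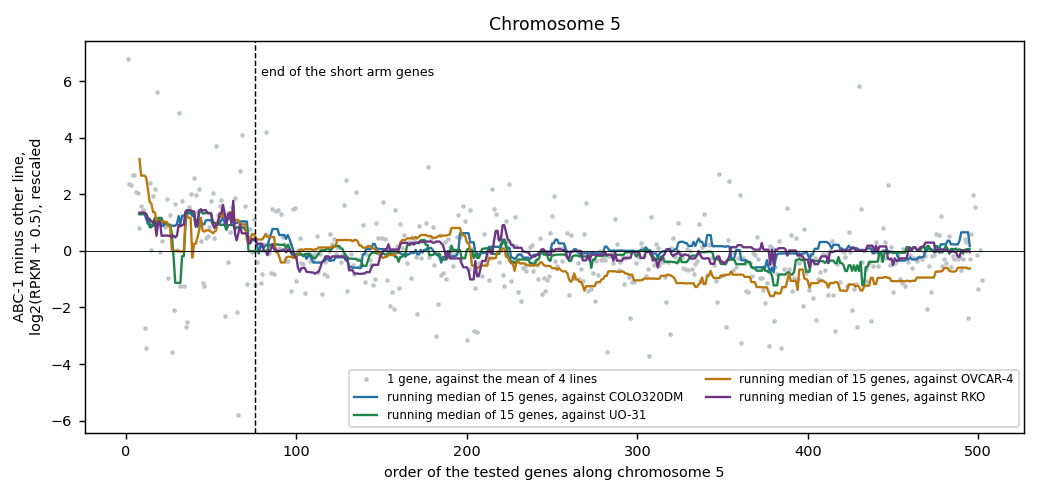
Differences between ABC-1 and the other lines on log2(RPKM + 0.5) after rescaling, for the tested genes of chromosome 5 in their order along it, with gray points for single genes against the mean of the 4 lines and colored lines for running medians of 15 genes against each line. The dashed line ends the 75 genes of the short arm, whose median is 1.12, and over the first 15 of them the 4 running medians lie between 1.3 and 3.25.

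Runs of lower genes lay elsewhere. Of 11031 overlapping runs of 15 neighboring tested genes, 264 had a median at or below -0.5 log2 units against each of the 4 lines, and 246 had one at or above 0.5, of which 50 were on chromosome 5. The runs below were picked after their values were seen. On chromosome 17, the 15 genes from SKAP1 to PHOSPHO1 (chr17:46210804-47308149), which hold the HOXB cluster, had a median of -2.19 log2 units. On chromosome 22, the 15 genes from SAMM50 to TRMU (chr22:44351322-46753237), which include PARVB, had a median of -1.19. On chromosome 14, the 15 genes from INF2 to CRIP1 (chr14:105147483-105955284), which include AKT1, had a median of -1.10. On chromosome 16, the 15 genes from MT3 to ARL2BP (chr16:56622986-57287547) had a median of -2.64 and hold the metallothioneins.

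Metallothioneins, small proteins that bind zinc, copper and cadmium, were low in ABC-1, and several were as low in COLO320DM. MT1X had 4.61 and 5.12 RPKM in ABC-1, 255 and 245 in RKO, 58.8 and 58.5 in UO-31, 70.2 and 69.8 in COLO320DM and 165 and 169.8 in OVCAR-4. It was lowest in ABC-1 by -3.42 ± 0.057 log2 units (SE) from UO-31 (limma, adjusted p = 8.17e-13) and stood apart as lower. MT2A, the most abundant member, had 59.2 and 64.9 RPKM in ABC-1, 3237 and 3151 in RKO, 2988 and 2971 in UO-31, 93.1 and 98.9 in COLO320DM and 962 and 955 in OVCAR-4. It was also lowest in ABC-1, with a difference of -0.65 ± 0.043 log2 units (SE) from COLO320DM, too small for it to stand apart. MT1A, MT1G and MT3 were listed at 0 in both ABC-1 libraries, but RKO was also below 1 RPKM in each of them. For MT1E (1.0 and 1.32 RPKM in ABC-1 and 0 and 0.768 in COLO320DM), MT1F, MT1L and MT1M, COLO320DM and not ABC-1 had the lowest mean. RKO, grown in the same medium as ABC-1, had high MT1X and MT2A. Reads of metallothionein genes can be shared between near-identical members, so the single values are uncertain.

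The promoters of MT1X and MT2A are shown because these genes are switched on by metals through short elements near their start. The sequences run from 250 bases before to 50 after the start in RefSeq (GRCh38.p14, plus strand, chr16:56682220-56682519 for MT1X and chr16:56608334-56608633 for MT2A). Capitals mark TGCACNC and TGCGCNC, the core of the metal response element, on either strand.
MT1X: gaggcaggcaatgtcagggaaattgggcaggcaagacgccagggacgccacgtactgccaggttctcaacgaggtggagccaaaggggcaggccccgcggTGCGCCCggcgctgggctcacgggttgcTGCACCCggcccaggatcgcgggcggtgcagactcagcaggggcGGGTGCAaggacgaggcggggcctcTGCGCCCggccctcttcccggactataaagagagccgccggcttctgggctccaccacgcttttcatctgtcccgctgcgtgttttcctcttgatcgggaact
MT2A: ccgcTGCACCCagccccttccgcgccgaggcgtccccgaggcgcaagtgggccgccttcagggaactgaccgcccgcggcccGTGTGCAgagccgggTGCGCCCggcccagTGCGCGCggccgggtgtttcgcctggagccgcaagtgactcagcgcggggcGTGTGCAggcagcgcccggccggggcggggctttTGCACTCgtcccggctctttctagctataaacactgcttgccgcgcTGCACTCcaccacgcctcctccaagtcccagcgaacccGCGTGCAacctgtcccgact
The search found 4 matches in MT1X and 8 in MT2A, while 29.6% of 35116 promoters of the same length hold at least 1. As many as 4 matches occurred in 0.601% of promoters and as many as 8 in 0.0199%. A match describes the sequence and does not show that a factor binds there.

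The libraries treated with G007-LK gave a separate set of 10 in which the same contrast could be repeated. Of the 304 genes that stood apart as higher under DMSO, 251 (82.6%) did so under G007-LK, which is 76.5% of the 328 found there, and of the 528 lower genes 458 (86.7%) did, which is 68.7% of 667. After rescaling, 435 of 508 higher genes (85.6%, and 74.1% of the 587 under G007-LK) and 332 of 415 lower genes (80%, and 76.7% of 433) were shared. CYP26B1 was an exception among the named genes, since its ABC-1 values were 6.02 and 6.47 RPKM under DMSO and 0.613 and 0.516 under G007-LK, while RKO had 0.996 and 1.00 under DMSO and 1.09 and 1.02 under G007-LK. The high level of CYP26B1 in ABC-1 was thus present under DMSO and absent under the inhibitor. SGK1 had 0.249 and 0.280 RPKM in ABC-1 under DMSO and 1.73 and 1.39 under G007-LK, against 1.06 and 1.33 under DMSO and 1.99 and 1.83 under G007-LK in COLO320DM.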

How the data were processed

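Poly(A) RNA of 5 human tumor cell lines was sequenced under DMSO and under G007-LK, with 2 libraries for each. Per the labels and the study's methods, the authors aligned reads to the reference gene set of hg19 with SOAPaligner/SOAP2, allowing 2 mismatches, and deposited RPKM values per gene, on a linear scale. The sources used here do not state whether counting used strand or how shared reads were assigned. Deposited tables of the authors' own comparisons (fold changes and p-values) were not used.

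Missing values were taken as 0, and 8 entries without a symbol, which held at most 0.00134% of RPKM, were left out. Log2(RPKM + 0.5) of the 10 DMSO libraries was fitted with limma 3.58.1 (R 4.3.3, trend and robust) for the 12544 genes whose 5 line means averaged 1 RPKM or more. Contrasts set ABC-1 against each line and against their equally weighted mean, with Benjamini-Hochberg adjustment over all genes at 0.05. Median-ratio rescaling divided each library by its median ratio to the geometric mean library. The fit was tested on simulated data. Positions are from GENCODE lifted to GRCh37 and were found for 17917 of 21201 symbols.

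The groups, lists and genes were chosen with earlier results of these data known. The text named the 15 genes with the largest difference from the nearest line in each direction (at least 10 RPKM in ABC-1, or at least 5 in each other line, small RNA genes left out), up to 5 members apart in each direction in each list, the alveolar, airway and driver lists, and the 5 most abundant genes. Other named genes, among them those on chromosome 5, the metallothioneins and genes given for comparison within a list, were picked after their values were seen. Pseudocounts, filters, scalings, a replicate block, the samples in the fit, the G007-LK libraries and each library left out were tried as alternatives, and 4 combinations with rescaling were added after seeing the data. Some results are not reported here.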

Additional observations from a re-analysis of the deposited data

How the results depend on the processing

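The comparison with OVCAR-4 depended most on the scaling. Of the genes tested, 1655 were higher and 9455 lower in ABC-1 than in OVCAR-4 on deposited values, against 4955 and 5765 after median-ratio rescaling, 4873 and 5727 with equal sums of RPKM, and 5783 and 4901 after quantile normalization. With a mean of at least 5 RPKM required, 1064 were higher, from fewer genes tested. The 304 genes that stood apart as higher became 508 under median-ratio rescaling (also with a replicate block), 508 under quantile normalization, 175 with at least 5 RPKM and 587 in the G007-LK libraries after rescaling. With a difference of at least 0.58 or 2 log2 units in place of 1, 520 or 137 stood apart as higher and 1100 or 140 as lower, and quantile normalization gave 330 as lower. Beyond the construction of each alternative, the cause was not tested.

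Leaving out each library in turn gave 3313 to 4036 genes higher and 6239 to 7260 lower than the mean of the other lines, and 291 to 326 and 486 to 577 that stood apart, or, as higher after rescaling, 505, 506, 507, 510, 512, 513, 515 and 518. Against the single lines it gave 4695 to 5518 higher and 4513 to 5416 lower (COLO320DM), 3997 to 4633 and 5295 to 6029 (UO-31), 1465 to 1762 and 9014 to 9601 (OVCAR-4), and 4965 to 5597 and 4193 to 4861 (RKO). An arm left with 1 library is assumed to vary like the other lines.

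Deviations of same-numbered libraries from their line means correlated between -0.025 and 0.367 over the 10 pairs of lines, and 1 pair exceeded 0.1. An effect of the replicate number common to all lines was thus not seen. Whether that 1 pair shared an effect was not tested. With the replicate number as a block, 3859 genes were higher and 7048 lower than the mean, and 304 and 528 stood apart.

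Of 95 named genes, CYP26B1 turned to -0.55 log2 units from the nearest line under G007-LK (-0.48 after rescaling) and TBX3 to 0.24 under quantile normalization, while ITGB4, SGK1 and TGFB1 lost a call under at least 1 alternative. With no counts used, precision at low RPKM is unknown.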
